A study of Mus musculus with 13 samples.

Results

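The 8 Hedgehog genes described here are Shh, Ptch1, Boc, Hhip, Smo, Gli1, Gli2 and Gli3, taken by symbol from the 27998 genes of the deposited tables, and each symbol matched 1 gene. Hedgehog ligands are lipid-modified proteins released by 1 cell and read by its neighbours. In receiving cells the ligand binds the receptor Ptch1 and ends its block on Smo, and Gli factors then switch on target genes that include Ptch1, Gli1 and Hhip themselves, so the level of these targets is widely used as a readout of the pathway. In embryonic skin, Shh made in hair placodes and later in the hair matrix is known to act on the follicle epithelium and on the dermal condensate below it.

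The data were droplet single-cell RNA libraries (10x Genomics Chromium 3′) of dorsal skin from C57BL/6 mice, read as unique molecular identifiers (UMIs), short barcodes that let each captured transcript be counted once. WT mice and Grhl3-/- littermates, which lack the transcription factor Grhl3, were each represented by 2 libraries at the embryonic ages E14.5 and E16.5 and at birth (P0), and 1 further P0 WT library was made with Chromium v1 chemistry. Whole back skin was used before birth and epidermis at P0, with a short Dispase digestion before birth and an overnight digestion at P0, so that age, tissue and dissociation cannot be told apart wherever P0 is set against E16.5. By the study's methods, the pair of libraries of a genotype and age came from 1 male and 1 female of the same pregnancy. The spread within such a pair is therefore that between single littermates of unlike sex. WT and Grhl3-/- animals were littermates as well, so age and litter cannot be told apart in any comparison of ages. This holds for E16.5 against E14.5 too.

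Libraries held 49245953 to 107038146 UMIs, and 86507 of 97363 barcodes passed the filters on detected genes and mitochondrial UMIs, with a median of 7448 to 9976 UMIs per kept cell. Libraries of the same age shared 39 to 96 barcode sequences, or 0.740 to 1.46%, and other pairs shared up to 1.57%. Doublets were left in, and an alternative without the highest Scrublet scores was run. The deleted gene itself was lowered but not absent in IFE differentiated-like cells. Grhl3 stood there at 25.7 and 25.4 per 1000000 UMIs in the P0 WT libraries and at 6.7 and 9.7 in the P0 Grhl3-/- libraries. At E14.5 the values were 85.7 and 108 against 60.7 and 63.5, and at E16.5 32.012 and 32.993 against 15.001 and 11.068. In IFE basal-like cells Grhl3 was lower at P0 (log2 -1.41 ± 0.364, adjusted p = 0.00606, edgeR quasi-likelihood test). It was not called there at E14.5 (log2 -0.386 ± 0.385) or E16.5 (log2 0.0003 ± 0.412). The 3′ tags may lie outside the deleted part, so these values are only a weak check of the labels. In IFE basal-like cells they are no check before birth.

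Cells were clustered at each age without any of 38 Hedgehog pathway genes, so no class was built from the genes described here. Classes were named from marker lists and carry the ending -like. The interfollicular epidermis (IFE) basal-like class held 1020 cells at E14.5, 1648 at E16.5 and 3504 at P0, the hair follicle-like class 1032 at E16.5 and 14256 at P0, the fibroblast-like class 13383 and 9736 at the 2 embryonic ages, and the dermal condensate-like class 277 and 1059. Lhx2 and Sox2 went with the names: Lhx2, a placode and follicle factor, stood at 398 to 572 per 1000000 UMIs in hair follicle-like sums against 1.9 to 74.6 in IFE basal-like sums of the same ages, and Sox2, a condensate factor, at 91.3 to 167 in dermal condensate-like sums against 0.3 to 2.0 in fibroblast-like sums. The placode gene Dkk4 set follicle-like from IFE basal-like sums at E16.5 (33.1 to 144 against 3.8 to 26.3) but not at P0 (0.3 to 1.9 against 0.1 to 2.8). Edar did so at E16.5 (68.6 to 79.8 against 13.8 to 19.9) but overlapped at P0 (28.4 to 37.3 against 17.8 to 34.6). The sum of all hair follicle markers also overlapped at P0 in Grhl3-/- libraries, as given below. In IFE basal-like sums of E14.5 it stood at 8.2 and 177 in WT and 34.3 and 35.2 in Grhl3-/- libraries. At E14.5 no cluster met the follicle list, so placode cells of that age were not compared as a class, and some may lie in the IFE basal-like class. All levels are UMIs of a gene per 1000000 UMIs (CPM), summed over the cells of a class in 1 library, and where 4 values follow each other the WT libraries come first. In such sums a gene read by fewer cells and a gene read less per cell cannot be told apart.

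Of the ligands of its family, Shh alone was above 0.626 CPM in these 4 classes, where Ihh and Dhh stayed at or below that level. Ihh and Dhh were not read in other classes, Schwann-like cells among them. The Shh gene lies on chromosome 5 of GRCm38 (chr5:28456815-28467256, minus strand), and its first 883 bases overlap the long noncoding RNA gene Gm26894 on the opposite strand. Among the receiving genes, Ptch1 lies at chr13:63508328-63573598 (minus strand), Boc at chr16:44485049-44558897 (minus), Hhip at chr8:79965851-80058006 (minus), Smo at chr6:29735503-29761365 (plus), Gli1 at chr10:127329882-127341974 (minus), Gli2 at chr1:118834132-119053619 (minus) and Gli3 at chr13:15463235-15730026 (plus).

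The target genes Ptch1 and Hhip carried the largest differences between dermal condensate-like and fibroblast-like cells at E14.5 among the members, so their promoters are shown, each from 250 bases before to 50 after the RefSeq start on GRCm38.p6 (chr13:63565686-63565985 and chr8:80057959-80058258, both minus strand). The Ptch1 window lies inside the gene as placed above and not at its outermost start, which on the minus strand is at 63573598. Capitals mark the letters CCACCC, or GGGTGG on the other strand, which form the core of the Gli binding motif GACCACCCA.
Ptch1: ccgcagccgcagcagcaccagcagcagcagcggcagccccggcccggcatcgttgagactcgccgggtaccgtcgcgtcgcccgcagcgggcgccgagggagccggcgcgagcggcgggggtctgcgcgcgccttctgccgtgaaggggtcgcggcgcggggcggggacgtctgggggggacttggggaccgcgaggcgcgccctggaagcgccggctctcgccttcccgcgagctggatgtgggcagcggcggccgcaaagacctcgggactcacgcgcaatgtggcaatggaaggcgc
Hhip: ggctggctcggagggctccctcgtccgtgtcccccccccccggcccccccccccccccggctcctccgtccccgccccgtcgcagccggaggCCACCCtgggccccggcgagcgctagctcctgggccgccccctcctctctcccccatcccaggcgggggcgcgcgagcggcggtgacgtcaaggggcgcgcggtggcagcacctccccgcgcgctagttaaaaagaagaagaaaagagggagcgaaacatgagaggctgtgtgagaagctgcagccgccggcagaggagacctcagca
The full 9-letter motif GACCACCCA, read on both strands, was in neither window, nor in those of Gli2, Gli3 and Smo, the other members among the 5 of 8 with a RefSeq promoter here. It occurred in 83 of 32851 promoter windows of the same length (0.253%). The 6-letter core, which is contained in the full motif, occurred in 31.5% of all windows, once in that of Hhip and not in that of Ptch1, which does not exclude sites elsewhere.

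Shh was concentrated in hair follicle-like cells. At E16.5 it stood at 126 and 119 CPM in the WT follicle-like sums and at 147 and 152 in the Grhl3-/- sums, a mean of 136 ± 15.9 (SD, n = 4). IFE basal-like sums of the same libraries held 4.3, 1.9, 1.9 and 2.5, in the same order, so the classes did not overlap. The counts behind the follicle-like values were 362, 294, 208 and 255 UMIs. Follicle-like cells made up 2.95 to 4.47% of the cells at E16.5 and held 78.2 to 88.3% of all Shh UMIs of a library.

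At P0 the follicle-like sums held Shh at 106 and 134 CPM in WT and at 88.5 and 113 in Grhl3-/- libraries (mean 110 ± 18.9, SD, n = 4), on 3025 to 5896 UMIs. The class was then 43.2 to 53.5% of the cells and held 75.9 to 84.0% of the Shh UMIs of a library. IFE basal-like sums had risen to 28.4, 30.2, 12.7 and 35.2. Values outside the epithelium were raised at P0 as well: melanocyte-like sums held 26.2 to 40.1, T cell-like sums 8.34 to 19.97 and macrophage-like sums 3.6 to 17.6. At E16.5 macrophage-like sums held at most 0.982, but melanocyte-like sums held 0 to 7.68, Schwann-like sums 0 to 7.97 and erythrocyte-like sums 1.18 to 10.5. These cells are not known as Shh sources, so the IFE basal-like levels of both ages overlapped those of cell types that should lack the gene, and were not read as expression.

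At E14.5 Shh was rare, with 36 and 19 UMIs in the whole WT libraries and 4 and 51 in the Grhl3-/- libraries, of which 2, 5, 2 and 7 lay in IFE basal-like cells. Almost none was found in the dermis before birth. Dermal condensate-like sums held 0 UMIs in all 4 libraries at E14.5, and 1, 0, 0 and 1 UMI at E16.5. Fibroblast-like sums, far larger, held 3, 0, 0 and 1 UMI at E14.5 and 11, 8, 4 and 5 at E16.5. The ligand and the condensate, described next, were thus measured in separate cells.

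**Figure D1:**
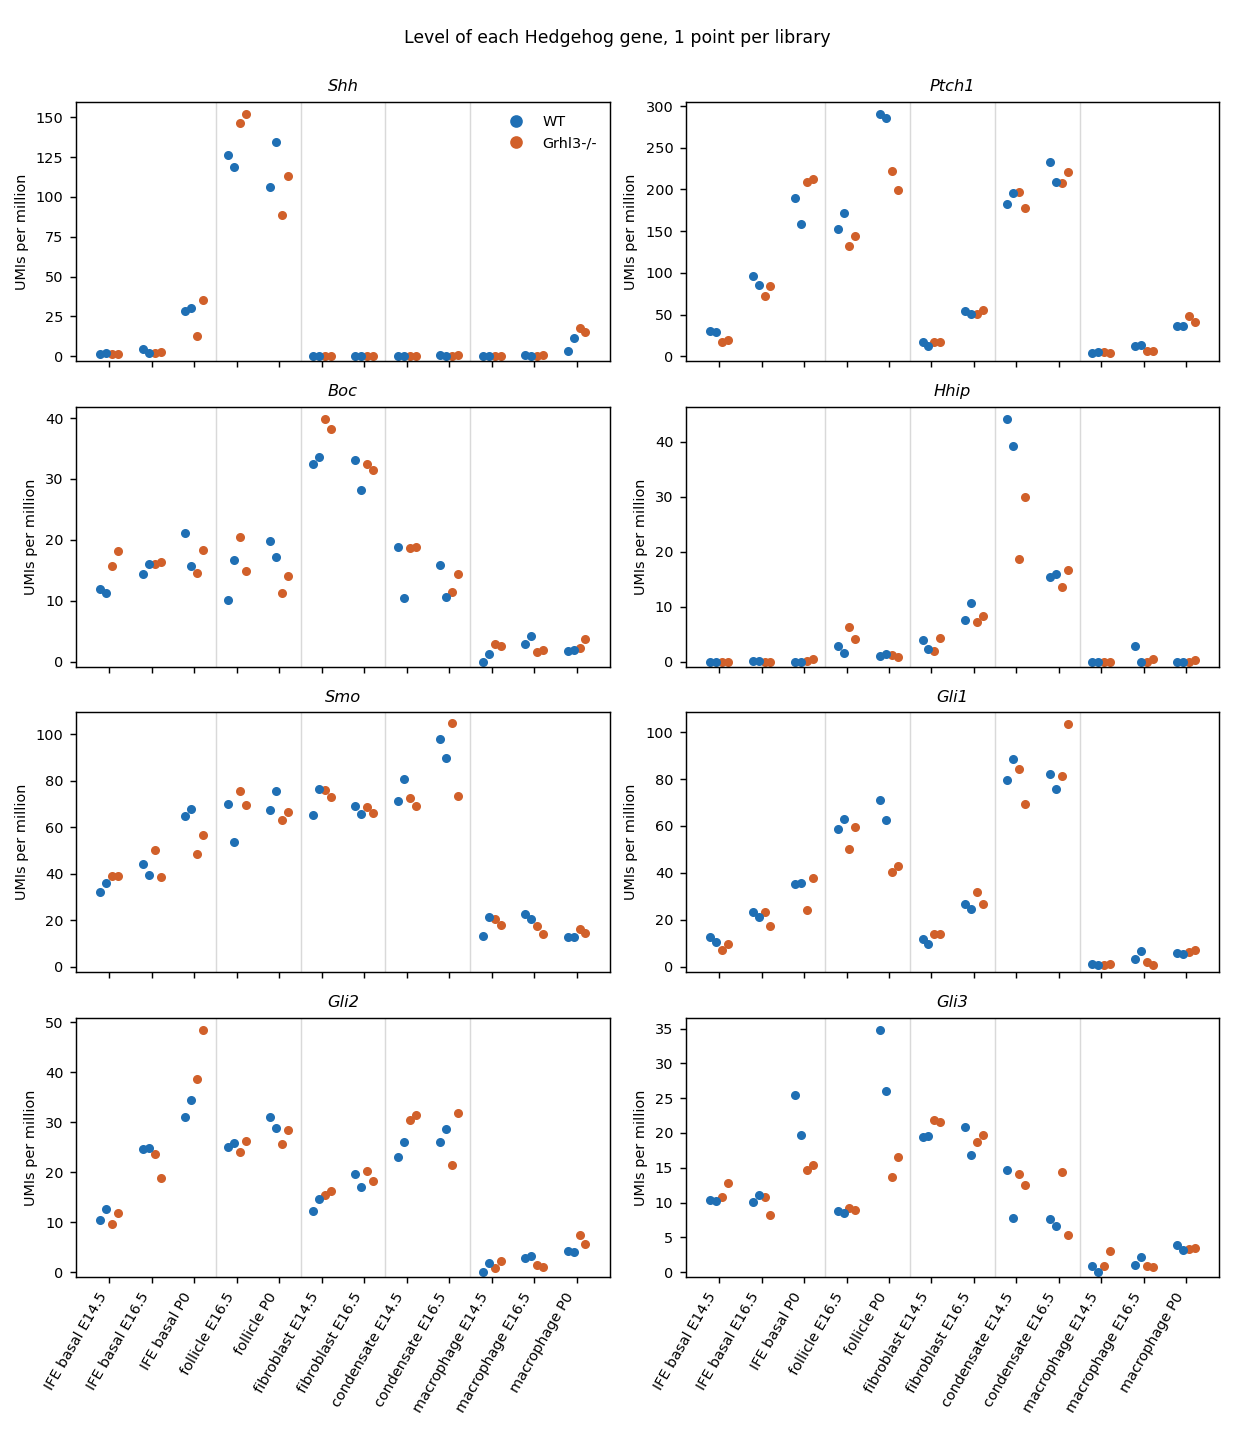
Level of each of the 8 Hedgehog genes in CPM (vertical axis) in IFE basal-like, hair follicle-like, fibroblast-like, dermal condensate-like and macrophage-like sums at each age (horizontal axis), 1 point per library, blue for WT and orange for Grhl3-/-. Shh points are highest in follicle-like sums, whereas Ptch1, Gli1 and Hhip points are highest in dermal condensate-like sums before birth, with Hhip at 18.7 to 44.1 at E14.5.

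Before birth Ptch1, the Hedgehog receptor and a target of the pathway, had its highest mean level in the dermal condensate among the named classes. At E14.5 it stood at 183 and 196 CPM in WT and 197 and 178 in Grhl3-/- dermal condensate-like sums, against 16.7, 12.5, 17.0 and 16.8 in fibroblast-like sums. Mesenchymal cells of an intermediate cluster, led by Crabp1 and Twist2, held 67.7 to 124. The order of levels at E14.5 was therefore condensate, intermediate mesenchyme and fibroblast, with no overlap between neighbours. Within libraries the condensate-like sums were 12.1-fold above the fibroblast-like sums (log2 difference 3.60 ± 0.13 SE, adjusted p = 2.71e-155, edgeR quasi-likelihood test with the library as a block and Benjamini-Hochberg adjustment over all genes tested). So small a p-value cannot come from the spread between these few libraries alone, and it was read only as passing the threshold. The same holds for the other very small p-values between classes.

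At E16.5 Ptch1 stood at 233, 209, 208 and 221 in dermal condensate-like sums and at 53.7, 50.5, 51.3 and 55.5 in fibroblast-like sums, WT first. The difference between the classes was then 3.76-fold (log2 1.91 ± 0.06, adjusted p = 5e-27). In WT fibroblast-like sums the level rose 4.06-fold from E14.5 to E16.5 (log2 2.02 ± 0.14, adjusted p = 1.13e-05), while condensate-like sums did not pass the test for age. The class's own fibroblast markers summed to 17369 to 20763 at E14.5 and 35739 to 39367 at E16.5. Whether that shift had a part in the rises of this class was not tested. Intermediate mesenchyme, at 163 to 212, overlapped the condensate-like sums at this age. Endothelial-like, pericyte-like and macrophage-like sums held 11.3 to 22.4, 7.26 to 17.8 and 6.05 to 13.8 at E16.5, below every fibroblast-like sum.

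Gli1, a factor that is itself switched on by the pathway, followed the same order. Its E14.5 values were 79.7, 88.7, 84.3 and 69.2 in condensate-like sums against 11.7, 9.6, 14 and 14.2 in fibroblast-like sums, and the 6.51-fold difference passed the test (log2 2.70 ± 0.18, adjusted p = 1.27e-51). At E16.5 they were 82.1, 75.8, 81.1 and 103 against 26.8, 24.5, 31.8 and 26.6 (2.83-fold, log2 1.5 ± 0.09, adjusted p = 2.76e-17). The narrower gap at E16.5 went with a 2.74-fold rise in WT fibroblast-like sums (log2 1.45 ± 0.14, adjusted p = 6.59e-05).

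Hhip, which binds the ligand and limits its spread, had a higher mean level in the E14.5 condensate than in the other named classes of that age, although 1 cartilage-like sum reached 23.9. Most of its UMIs nevertheless lay elsewhere: condensate-like cells, 0.881 to 1.35% of the cells, held 9.31 to 12.2% of the Hhip UMIs of a library, and fibroblast-like cells, 50.3 to 58.8% of the cells, held 44.5 to 67.5%. It stood at 44.1 and 39.2 in WT and 18.7 and 29.9 in Grhl3-/- condensate-like sums, which rest on 21, 15, 8 and 19 UMIs, against 1.9 to 4.4 in fibroblast-like sums. The difference between the classes was 10.5-fold (log2 3.39 ± 0.31, adjusted p = 1.66e-26). By E16.5 the condensate-like values had fallen to 15.3, 15.9, 13.6 and 16.7, beside 15.6 to 22.1 in intermediate mesenchyme. In WT the fall passed the test (2.78-fold, log2 change -1.48 ± 0.32, adjusted p = 0.00244), but not without the first E14.5 WT library (adjusted p = 0.091). Fibroblast-like sums rose over the same interval to 7.1 to 10.6 (WT log2 1.72 ± 0.36, adjusted p = 0.00519), which left the classes 1.68-fold apart at E16.5 (log2 0.75 ± 0.17, adjusted p = 0.000357).

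The other members differed between these classes in both directions. Smo, the transducer that Ptch1 holds back, stood at 69.2 to 80.9 in condensate-like and 65.5 to 76.6 in fibroblast-like sums at E14.5, and the ranges overlapped. At E16.5 it was 73.7 to 105 against 65.7 to 69.3, and the 1.23-fold difference passed the test (log2 0.30 ± 0.07, adjusted p = 0.000714). Gli2, the main activating factor, was higher in the condensate at both ages (log2 0.95 ± 0.24 with adjusted p = 0.000368, and 0.38 ± 0.13 with adjusted p = 0.0137). Gli3, which acts mainly as a repressor, was lower in the condensate, at 5.3 to 14.4 against 16.8 to 20.9 at E16.5 (log2 -1.33 ± 0.19, adjusted p = 1.79e-07). At E14.5 its condensate-like values rest on 3 to 8 UMIs, and the call (adjusted p = 0.0431) was lost in 6 of 12 other settings.

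Boc, a co-receptor that promotes ligand binding, also went against the targets. Its fibroblast-like sums held 32.5 to 39.8 at E14.5 and 28.2 to 33.1 at E16.5, against 10.4 to 18.9 and 10.6 to 15.8 in condensate-like sums, with no overlap at either age. The condensate-like level was 2.08-fold lower at E14.5 (log2 -1.06 ± 0.24, adjusted p = 7.47e-05) and 2.61-fold lower at E16.5 (log2 -1.39 ± 0.14, adjusted p = 7.57e-11).

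Counted together, 6 of 7 members tested passed between condensate-like and fibroblast-like cells at E14.5, 4 higher and 2 lower, where 36.8% of all genes passed. At E16.5 it was 7 of 7, 5 higher and 2 lower, beside 57.5% of all genes. Of the targets in the wider list of 38 pathway genes, 6 of 8 tested were higher in the condensate and none lower at E14.5, beside 15.5% higher and 21.3% lower of all genes. At E16.5, 7 were higher and 1 lower, beside 27.4% higher and 30.1% lower of all genes. These targets include members counted above, such as Gli1, so their count is not separate support. The co-receptors Cdon and Gas1 were lower with Boc, Cdon by log2 -2.80 ± 0.27 (adjusted p = 7.02e-24) and Gas1 by log2 -2.31 ± 0.09 (adjusted p = 1.36e-133) at E14.5. Epithelial RNA was low in both classes: IFE basal markers summed to 42 to 123 CPM in condensate-like and 37.9 to 95.9 in fibroblast-like sums at E14.5, against 8311 to 8942 in IFE basal-like sums.

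**Figure D2:**
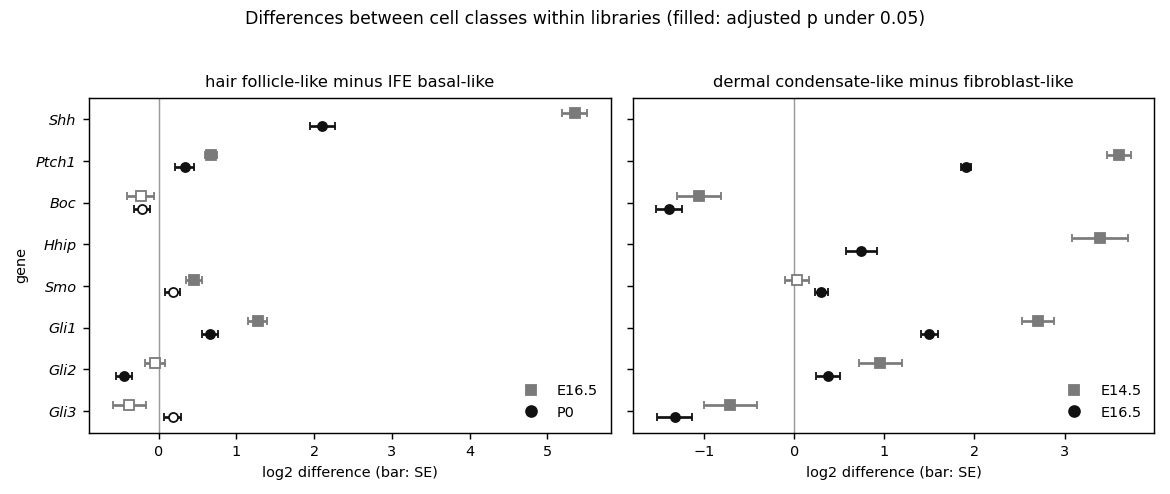
Differences between cell classes within libraries on a log2 scale (horizontal axis, bars are SE) for each Hedgehog gene (vertical axis), on the left hair follicle-like minus IFE basal-like at E16.5 and P0, on the right dermal condensate-like minus fibroblast-like at E14.5 and E16.5, filled where the adjusted p is under 0.05. On the right Ptch1, Gli1 and Hhip lie to the right of 0 and Gli3 and Boc to the left, and on the left Shh lies farthest to the right, at 5.35 at E16.5 (Hhip is left out there because of its low counts).

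In the epithelium, ligand and targets were raised in the same class. Between hair follicle-like and IFE basal-like cells of E16.5, 4 of 7 members tested were higher and none lower, beside 32.1% of all genes (16.4% higher). Shh was 40.8-fold higher (log2 5.35 ± 0.16, adjusted p = 1.68e-17), a fold taken against 24, 13, 4 and 4 UMIs in IFE basal-like sums, at a level that other cell types reached as well. Gli1 stood at 58.6, 62.8, 50.1 and 59.7 in follicle-like sums against 23.5, 21.1, 23.6 and 17.5 in IFE basal-like sums (2.41-fold, log2 1.27 ± 0.12, adjusted p = 1.04e-08).

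Ptch1 differed less, at 153, 172, 132 and 144 against 96.8, 85.1, 72.6 and 84.6 (1.59-fold, log2 0.67 ± 0.08, adjusted p = 6.3e-07). For all 3 genes every follicle-like sum lay above every IFE basal-like sum. Smo was 1.37-fold higher (log2 0.46 ± 0.10, adjusted p = 0.00106), and Boc, Gli2 and Gli3 did not pass the test, with follicle-like levels of 10.1 to 20.5, 24.0 to 26.2 and 8.5 to 9.2. Fibroblast markers, which carry RNA of the receiving dermis, were higher in these follicle-like sums too. All 8 were detected in both classes, and their sum was 2495 to 3353 CPM in follicle-like and 1212 to 1699 in IFE basal-like sums, against 35739 to 39367 in fibroblast-like sums. Their part in the Ptch1 and Gli1 differences was not tested. At that fibroblast-like level Ptch1 was 50.5 to 55.5 and Gli1 24.5 to 31.8. Dermal condensate-like and intermediate mesenchyme sums of E16.5 held more of both. Gli1 stood there at 75.8 to 103 and 59.3 to 71.7, and Ptch1 as given above.

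At P0 the follicle-like class again led for Shh, by 4.30-fold (log2 2.11 ± 0.16, adjusted p = 1.87e-05), and for Gli1, by 1.58-fold (log2 0.66 ± 0.10, adjusted p = 0.00107). Ptch1 was at 291, 286, 222 and 199 in follicle-like sums and at 190, 158, 209 and 213 in IFE basal-like sums, which overlapped. Its 1.26-fold difference (log2 0.33 ± 0.12, adjusted p = 0.0472) lost its call in 9 of 13 other settings. Gli2 was lower in the follicle (log2 -0.44 ± 0.11, adjusted p = 0.00846). Hhip was counted at 31, 47, 61 and 42 UMIs in follicle-like sums and at 0, 0, 2 and 3 in IFE basal-like sums, and 30, 41, 59 and 37 of the former lay in cells of the outer root sheath list. In all, 4 of 8 members were higher and 1 lower, beside 49.2% of all genes, where Hhip is 1 of the 4 and passed the filter on low counts through the follicle-like sums alone. The 8 fibroblast markers summed to 518 to 720 in follicle-like and 649 to 1075 in IFE basal-like sums at this age, and Col1a1, the main collagen among them, was near 0 in both (0.4 to 1.1 and 0.1 to 1.0). Hair follicle markers in the Grhl3-/- IFE basal-like sums overlapped the follicle-like level, as given below.

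Of the wider list, 18 genes were higher and 3 lower in the follicle of 29 tested at E16.5, beside 32.1% of all genes (16.4% higher). At P0 it was 15 higher and 7 lower of 35, beside 49.2% of all genes (26.6% higher). The targets Mycn (log2 3.66 ± 0.16, adjusted p = 1.2e-14), Bcl2 (log2 2.21 ± 0.10, adjusted p = 2.96e-14) and Ccnd1 (log2 1.97 ± 0.09, adjusted p = 5.86e-14) and the secreted Scube1 (log2 4.01 ± 0.41, adjusted p = 4.12e-08) led at E16.5. The co-receptors Cdon and Gas1 were lower there, while Boc did not pass: Cdon by log2 -1.48 ± 0.18 (adjusted p = 4.64e-07) and Gas1 by log2 -1.16 ± 0.07 (adjusted p = 4.4e-12).

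The share of single cells with a transcript was read after reducing every cell to 2000 UMIs. At E16.5 Shh was seen in 16.3, 17.8, 21.9 and 20.5% of follicle-like cells, and in at most 0.3% of macrophage-like cells, at median depths of 6771 to 8187 and 7593 to 11337 UMIs before the reduction. At P0 it was seen in 16.1, 20.7, 13.8 and 17.8% of follicle-like cells and 0.5 to 2.4% of macrophage-like cells, at 7482 to 11210 and 5890 to 8270 UMIs. IFE basal-like cells of P0, at 1.9 to 6.5%, overlapped with that background.

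Ptch1 was seen in 28.2, 39.6, 35.4 and 33.0% of condensate-like cells at E14.5 and 37.2, 36.9, 31.1 and 30.9% at E16.5. Fibroblast-like cells had shares of 2.6 to 3.5% and 8.6 to 10.0%, and macrophage-like cells 0.4 to 1.4% and 0.6 to 2.2%. Median depths were 6345 to 7111 and 5280 to 6218 UMIs in condensate-like, 7464 to 8058 and 7785 to 8840 in fibroblast-like and 9507 to 11918 and 7593 to 11337 in macrophage-like cells. The condensate thus had the higher share at the lower depth. Without the reduction the condensate shares were 72.0 and 66.4% as means over libraries, against 34.0% at both ages with it.

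**Figure D3:**
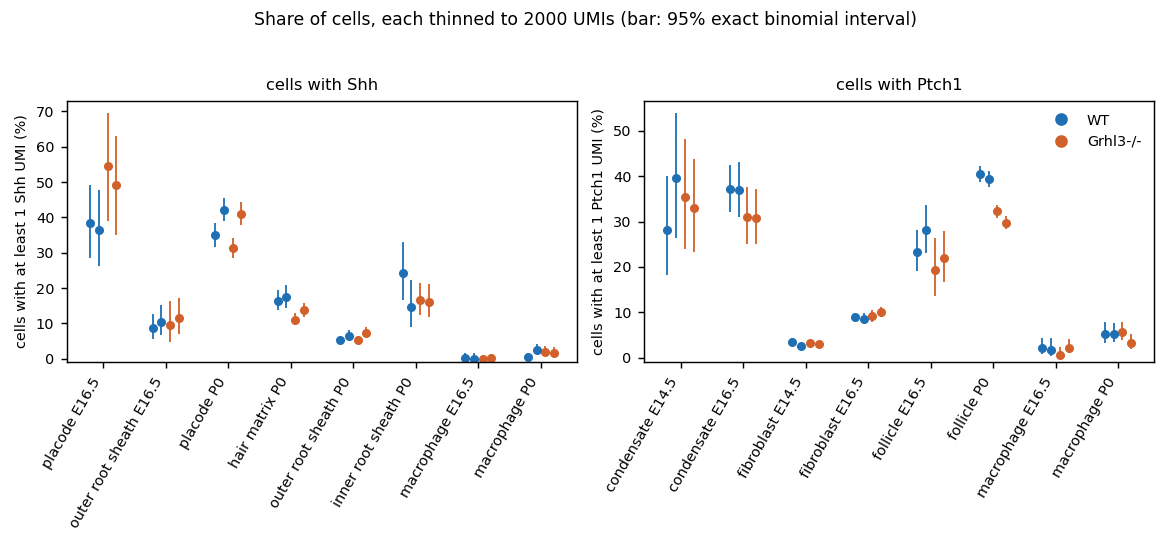
Share of cells in percent with at least 1 UMI of Shh (left) and Ptch1 (right) after each cell was reduced to 2000 UMIs, 1 point per library with its 95% exact binomial interval for counting error only, by class or marker list and age, blue for WT and orange for Grhl3-/-. Shh reaches 31.3 to 54.5% in placode-list cells and Ptch1 28.2 to 39.6% in dermal condensate-like cells, and macrophage-like cells lie near 0 in both.

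Follicle-like clusters were divided further by the marker list each scored highest for. Shh was highest in those of the placode list, at 329, 274, 447 and 363 CPM at E16.5 and 227, 284, 211 and 259 at P0. Dkk4, an early placode gene, was at 126 to 577 in these cells at E16.5 and at 0.9 to 7.1 at P0, and Edar at 160 to 178 and 50.8 to 70.9, so the P0 clusters share the list's name but not its defining gene Dkk4. Outer root sheath-list cells held Shh at 52.8 to 93.1 at E16.5 and 28.0 to 42.5 at P0, hair matrix-list cells at 71.0 to 104.5 and inner root sheath-list cells at 84.6 to 150 at P0. The order at P0 was placode list above matrix and inner root sheath lists, which overlapped, above the outer root sheath list. The P0 levels of that last list overlapped those of melanocyte-like sums (26.2 to 40.1), so they were not read as expression.

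The share of Shh-positive cells after reduction to 2000 UMIs was 38.5, 36.5, 54.5 and 49.1% in placode-list cells at E16.5 and 35.0, 42.1, 31.3 and 41.0% at P0, so that most placode-list cells in 7 of 8 libraries had no Shh UMI at this depth. Matrix-list cells had 16.4, 17.5, 11.1 and 13.7% and outer root sheath-list cells 5.2 to 7.4% at P0, where the latter overlapped IFE basal-like cells. Ptch1 did not follow Shh from cell to cell within the P0 placode list: its share was lower among Shh-positive than among Shh-negative cells by 4.3, 3.0, 2.9 and 3.5 percentage points. In all follicle-like cells of P0 the difference was 9.6, 4.0, -1.2 and -2.2 points, positive in both WT and negative in both Grhl3-/- libraries, and -3.6 in the Chromium v1 WT library. Cells of a library share their source and sparse counts, so these are descriptions without a test.

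Ptch1, Gli1 and Gli2 rose with age in the IFE basal-like class, where Hhip stayed at 0 to 0.427. In WT, Ptch1 went from 29.8 and 29.4 at E14.5 to 96.8 and 85.1 at E16.5 and to 190 and 158 at P0, steps of 3.23-fold (log2 1.69 ± 0.15, adjusted p = 7.52e-07) and 1.90-fold (log2 0.93 ± 0.12, adjusted p = 3.95e-06) with no overlap between ages. Gli1 went from 12.7 and 10.7 to 23.5 and 21.1 and to 35.3 and 35.6 (log2 1.02 ± 0.27 with adjusted p = 0.016, then 0.66 ± 0.19 with adjusted p = 0.00582). Gli2 went from 10.4 and 12.6 to 24.6 and 24.9 and to 31.1 and 34.5 (log2 1.15 ± 0.22 with adjusted p = 0.00166, then 0.40 ± 0.15 with adjusted p = 0.0326). The class's own IFE basal markers summed to 8311 to 8942 at E14.5, 22870 to 27321 at E16.5 and 20796 to 25606 at P0. Whether this shift had a part in these rises was not tested.

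Between E14.5 and E16.5, 3 of 7 members rose and none fell in IFE basal-like cells, beside 17.2% of all genes (8.99% higher). Between E16.5 and P0 it was 6 of 7, beside 60.2% of all genes (31.7% higher). At this second step Shh rose from 4.3 and 1.9 to 28.4 and 30.2 (log2 3.26 ± 0.41, adjusted p = 4.07e-06), which includes the P0 level of cells that should lack it, as given above. Macrophage-like sums rose for Ptch1 too, from 6.0 to 13.8 at E16.5 to 35.9 to 48.8 at P0. Melanocyte-like sums held Gli1 at 0 to 9.4 at E16.5 and 12.1 to 28.6 at P0. They held Gli2 at 0 to 3.0 and 9.5 to 14.2. In macrophage-like sums Gli1 overlapped between these ages, and Gli2 went from 0.98 to 3.2 to 4.0 to 7.3. The part of such RNA in the P0 rises was not tested. The Chromium v1 library of P0 held Shh at 4.3 and Ptch1 at 75.2 in IFE basal-like cells, both below the other P0 libraries, with Gli1 at 19.2 and Gli2 at 15.3. For Ptch1, Gli1 and Gli2 it lay below the WT libraries of E16.5 as well, so the rises to P0 were not seen in that library.

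In hair follicle-like cells 2 of 8 members rose from E16.5 to P0 in WT, beside 43.4% of all genes (23.0% higher). Gli3 went from 8.7 and 8.5 to 34.8 and 26.0 (3.82-fold, log2 1.93 ± 0.23, adjusted p = 2.89e-05) and Ptch1 from 153 and 172 to 291 and 286 (1.92-fold, log2 0.94 ± 0.10, adjusted p = 1.28e-05). Shh differed by log2 0.08 ± 0.14 between these ages. Within the lists, however, outer root sheath-list cells had less Shh at P0 (log2 -0.90 ± 0.23, adjusted p = 0.00544), at a P0 level that overlapped melanocyte-like sums, with 5 of 8 members called beside 43.8% of all genes. The clusters of the outer root sheath list differed between the ages as well. Lgr5 stood there at 35.5 to 42.7 at E16.5 and 64.1 to 93.6 at P0, and Edar at 39.7 to 56.5 and 19.7 to 33.3. Placode-list cells had more Ptch1, Gli1, Gli2 and Gli3, 4 of 7 members, beside 28.5% of all genes (15.9% higher), although their clusters at E16.5 and P0 differed in Dkk4 and Edar, as given above. In this list the Chromium v1 library held Ptch1 at 184, Gli1 at 70.3, Gli2 at 12.1 and Gli3 at 16.4. Each value lay between the WT libraries of E16.5 and the other P0 WT libraries. The E16.5 follicle-like class had no matrix-list or inner root sheath-list cells.

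In the dermis, 5 of 8 members rose in WT fibroblast-like cells from E14.5 to E16.5, beside 39.3% of all genes (19.5% higher): Ptch1, Gli1 and Hhip as given above, Gli2 (log2 0.63 ± 0.11, adjusted p = 0.00206) and Shh. The Shh call rests on counts that went from 3 and 0 UMIs to 11 and 8, at levels of at most 0.455 CPM, within the range over cell types that should lack the gene (from 0 in pericyte-like to 10.5 in erythrocyte-like sums at E16.5), so it was not read as a rise of expression. In dermal condensate-like cells Hhip alone was called of 7 members, beside 10.0% of all genes. Bcl2, an inhibitor of cell death, rose in the condensate (log2 1.91 ± 0.18, adjusted p = 3.21e-08) and Ccnd2, a cyclin, fell there (log2 -1.23 ± 0.12, adjusted p = 6.24e-08).

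Before birth no member was called between the genotypes in the main edgeR fits or by DESeq2 in the classes tested. With no filter on low counts, 1 member was called by edgeR in fibroblast-like cells of E14.5. Of 7 or 8 members tested per class, 0 were called in IFE basal-like cells at E14.5 and E16.5 (0.0084% and 0.462% of all genes called), in hair follicle-like cells at E16.5 (0.0961%), in fibroblast-like cells at E14.5 and E16.5 (2.91% and 1.02%) and in dermal condensate-like cells at E14.5 and E16.5 (0.0584% and 0.596%). At an unadjusted p under 0.05 the counts were 1, 0, 1, 2, 0, 1 and 0 members in the same order. With 2 libraries a group, differences of the size seen at P0 may be missed. Intermediate mesenchyme joined no test. There Gli1 stood at 35.5 and 28.9 in WT and 55.1 and 63.9 in Grhl3-/- sums at E14.5, without overlap. At E16.5 it stood at 66.8 and 59.3 against 64.4 and 71.7, where the genotypes overlapped. Gli2 was also apart at E14.5, at 19.0 to 21.8 in WT and 24.5 to 31.5 in Grhl3-/- sums. Smo was apart the other way, at 81.0 to 84.6 against 65.2 to 68.4. Gli2 and Smo overlapped at E16.5, and Gli3, Boc and Hhip overlapped at E14.5.

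At P0 the follicle of Grhl3-/- mice had lower levels of 3 members of 8, beside 32.2% of all genes (14.9% lower). Gli3 stood at 34.8 and 26.0 in WT and 13.7 and 16.503 in Grhl3-/- follicle-like sums (1.84-fold lower, log2 -0.88 ± 0.16, adjusted p = 0.00103). Gli1 stood at 71.1 and 62.6 against 40.5 and 43.0 (1.46-fold lower, log2 -0.55 ± 0.12, adjusted p = 0.00296). The genotypes did not overlap for either gene, and each call was lost in 1 of 19 other settings on the whole class, with the sums reduced to the same depth (adjusted p = 0.0742 for Gli3 and 0.0871 for Gli1). Neither was called in matrix-list cells alone (adjusted p = 0.074 and 0.189) or inner root sheath-list cells alone (0.381 and 0.816). Lower Gli3 was not particular to the follicle. Melanocyte-like sums of P0 held 16.8 to 30.7 in WT and 11.8 to 15.1 in Grhl3-/- libraries. Upper hair follicle-like sums held 16.1 to 22.0 and 7.4 to 9.9. In IFE differentiated-like, T cell-like and macrophage-like sums the genotypes overlapped. Genotype was not tested in these classes.

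Ptch1 stood at 291 and 286 in WT against 222 and 199 in Grhl3-/- follicle-like sums (1.25-fold lower, log2 -0.32 ± 0.10, adjusted p = 0.0215), and this call was lost without the second P0 Grhl3-/- library and in a fit on the P0 libraries alone (adjusted p up to 0.0819). Shh, at 106 and 134 against 88.5 and 113, overlapped between the genotypes (log2 -0.12 ± 0.13, adjusted p = 0.515). Smo, Gli2, Boc and Hhip did not pass the test, with Boc the nearest (log2 -0.41 ± 0.17, adjusted p = 0.0893). The share of calls among the members, 3 of 8, is close to that of all genes in either direction. The Chromium v1 WT library, of another chemistry and without a replicate, held Ptch1 at 179, Gli1 at 62.5, Gli3 at 16.1 and Shh at 82.7 in follicle-like cells, so for Ptch1 and Gli3 it lay below the P0 WT libraries, on the side of the Grhl3-/- libraries.

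The makeup of the follicle-like class differed between the genotypes at P0. Matrix-list cells were 22.1 and 19.7% of it in WT and 31.7 and 33.1% in Grhl3-/- libraries, outer root sheath-list cells 48.2 and 43.2% against 38.8 and 37.3%, and placode-list cells 25.9 and 32.8% against 23.0 and 23.1%. The division was therefore used for fits within each list, added after the data had been seen. In placode-list cells 3 of 7 members were lower in Grhl3-/- libraries, beside 21.8% of all genes (12.1% lower): Ptch1 (429 and 386 against 267 and 218, log2 -0.70 ± 0.14, adjusted p = 0.00184), Gli1 (87.6 and 74.9 against 45.0 and 48.9, log2 -0.74 ± 0.15, adjusted p = 0.00203) and Gli3 (37.9 and 25.6 against 10.3 and 16.4, log2 -1.20 ± 0.23, adjusted p = 0.00154). Shh in these cells did not pass the test, at 227 and 284 against 211 and 259 (log2 -0.08 ± 0.15).

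In outer root sheath-list cells Gli1 (71.6 and 67.9 against 45.9 and 48.1, log2 -0.52 ± 0.11, adjusted p = 0.00306) and Gli3 (36.4 and 28.3 against 15.1 and 15.01, log2 -1.05 ± 0.15, adjusted p = 0.000144) were lower, 2 of 8 members beside 31.9% of all genes (17.3% lower). Ptch1 there overlapped, at 254 and 282 against 261 and 235. In matrix-list and inner root sheath-list cells 0 members were called (17.7% and 9.96% of all genes), with 2 and 1 at an unadjusted p under 0.05 in edgeR, the only tool run on these lists. The Chromium v1 library held Ptch1 at 184, Gli1 at 70.3, Gli3 at 16.4 and Shh at 152 in placode-list cells, and Gli1 at 59.97 and Gli3 at 14.51 in outer root sheath-list cells. In both lists this WT library thus lay with or below the Grhl3-/- libraries for Gli3, in placode-list cells below them for Ptch1, and above them for Gli1.

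Other marker lists moved with genotype in the same sums. All 7 markers of differentiated IFE were detected in every follicle-like sum of P0, and their sum was 605 to 716 CPM in WT and 348 to 394 in Grhl3-/- libraries. The 6 IFE basal markers summed to 4854 to 5513 and 2956 to 3523, and the 8 fibroblast markers to 518 to 661 and 638 to 720. Their part in the genotype differences was not tested.

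**Figure D4:**
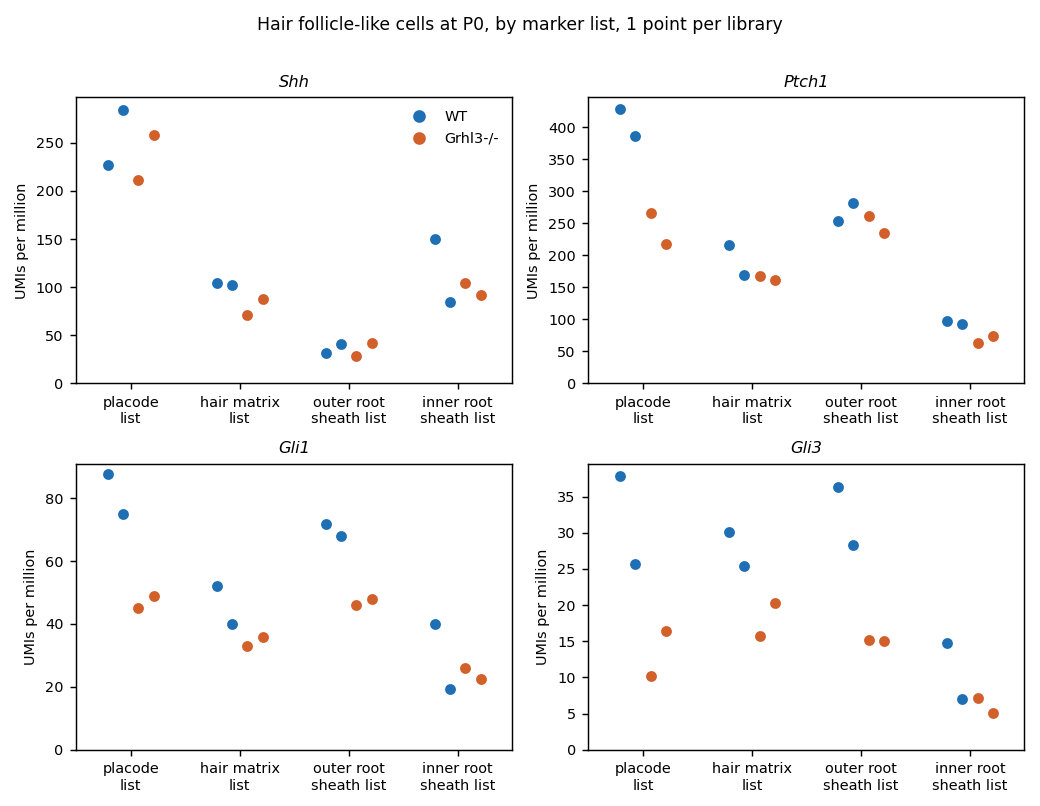
Levels of Shh, Ptch1, Gli1 and Gli3 in CPM (vertical axis) in hair follicle-like cells of P0, divided by marker list (horizontal axis), 1 point per library, blue for WT and orange for Grhl3-/-. In placode-list cells the 2 WT points of Ptch1 (429 and 386) lie above the 2 Grhl3-/- points (267 and 218), while the Shh points of the genotypes interleave.

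In IFE basal-like cells of P0, 3 of 7 members were called between the genotypes, beside 37.3% of all genes. Gli3 was lower in Grhl3-/- sums (25.5 and 19.7 against 14.7 and 15.4, log2 -0.60 ± 0.16, adjusted p = 0.00806), as was Smo (64.9 and 68.1 against 48.4 and 56.5, log2 -0.36 ± 0.13, adjusted p = 0.0328), and Gli2 was higher (31.1 and 34.5 against 38.6 and 48.5, log2 0.38 ± 0.14, adjusted p = 0.0455). The genotypes did not overlap for these genes, but the Gli2 call was lost in 14 of 23 other settings and that of Smo in 8, and DESeq2 called none of the 7. The Chromium v1 WT library held Gli3 at 14.6 and Smo at 36.4 in these cells, below both Grhl3-/- libraries, and Gli2 at 15.3, below all of the other P0 libraries. Ptch1 went the other way from the follicle, at 190 and 158 in WT and 209 and 213 in Grhl3-/- sums, without passing the test (log2 0.27 ± 0.11, adjusted p = 0.0712).

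Hair follicle markers were higher in the same Grhl3-/- sums: all 11 were detected in each, and their sum was 1382 to 1387 CPM in WT and 2269 to 3307 in Grhl3-/- libraries. Hair follicle-like sums of P0 held 2586 to 3237 for these markers, which the Grhl3-/- IFE basal-like sums overlapped. Markers of differentiated IFE summed to 4108 to 4672 in WT and 1750 to 1831 in Grhl3-/- IFE basal-like sums. Their part in the IFE basal-like differences was not tested.

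**Figure D5:**
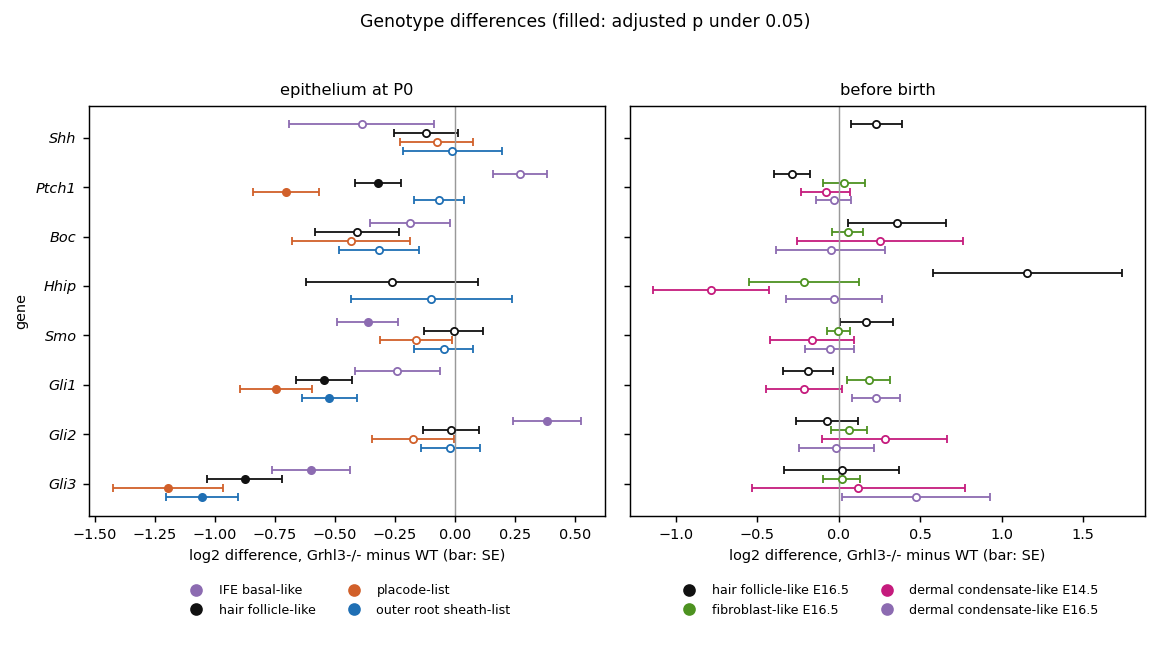
Differences between Grhl3-/- and WT libraries on a log2 scale (horizontal axis, bars are SE) for each Hedgehog gene (vertical axis), on the left in epithelial classes and marker lists of P0, on the right before birth, filled where the adjusted p is under 0.05 (Shh is left out for fibroblast-like cells, where it had few UMIs). Filled points occur on the left alone, with Gli3 lowest at -1.20 in placode-list cells, and all points on the right are open.

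The change of the genotype difference between E16.5 and P0 was tested itself, and no member passed by edgeR, where 13.4% of all genes were called in IFE basal-like and 10.2% in hair follicle-like cells. At an unadjusted p under 0.05, a looser limit than that behind these shares, there were 3 members in IFE basal-like cells, with Ptch1 at log2 0.52 ± 0.17 (adjusted p = 0.0561), and 2 in hair follicle-like cells, with Gli3 at log2 -0.89 ± 0.39 (adjusted p = 0.174). The genotype differences at P0 are therefore not shown to differ from those at E16.5.

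Some genes of the wider pathway list were called between the genotypes at P0. In follicle-like cells 2 of 35 were higher and 7 lower, beside 32.2% of all genes (17.3% higher and 14.9% lower), among them the proliferation factor Mycn (59.5 and 67.7 against 26.7 and 27.3, log2 -1.10 ± 0.13, adjusted p = 7.37e-05) and Bcl2 (129 and 132 against 70.7 and 75.8, log2 -0.70 ± 0.10). In the Chromium v1 library Mycn stood at 149, above all of the other P0 libraries, and Bcl2 at 74.0, between the Grhl3-/- values. In IFE basal-like cells 4 of 32 were higher and 5 lower, beside 37.3% of all genes, and Gas1, which binds the ligand at the cell surface, changed most (101 and 110 against 265 and 256, log2 1.29 ± 0.11, adjusted p = 6.9e-07). The Chromium v1 WT library held Gas1 at 252, at the level of the Grhl3-/- libraries.

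The mesenchyme that remained in the P0 epidermis was small, with 35 and 15 cells in WT and 72 and 66 in Grhl3-/- libraries, and was not tested. Among the whole classes of that age it held the highest Ptch1 levels, 603, 524, 378 and 364 CPM, where the Grhl3-/- values lay below those of WT placode-list cells (429 and 386), and Hhip at 104, 48.6, 84.4 and 106, far above the follicle-like 0.805 to 1.45. The second WT value of this class rests on 15 cells, under the 20 required for a test.

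Over the sums of all named classes and libraries (149 sums of 38 class and age combinations, which share libraries), the genes most like each member were read among 16308 genes by the correlation of their levels. Shh was closest to Lhx2 (r = 0.953), Hoxc13 (0.943) and Gm26894 (0.924). The last overlaps it on the other strand by 883 bases at the start of both genes, away from their 3′ ends. Only reads within that overlap would need strand to be told apart. Ptch1 was close to Gli1 (0.901) and Hs3st6 (0.831), and Gli1 to Hs3st6 (0.910), Ptch1 and Col7a1 (0.876). Gli2 had Gli1 (0.856), Col7a1 (0.844) and Lrig3 (0.837), and Hhip had Cyp26b1 (0.877), Frem1 (0.862) and Inhba (0.859), a condensate marker.

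Gli3 was nearest to Tead1 (0.777), Ick (0.756) and Zfp30 (0.741), Smo to Fam92a (0.815), Rbms3 (0.815) and Mbtps1 (0.810), and Boc to Zfp503 (0.811), Sema3a (0.808) and Fbln1 (0.802). The ligand and its receptor were less alike across these sums, at r = 0.605 for Shh and Ptch1.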

How the data were processed

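Processed tables of 13 single-cell libraries were used. The deposited values are raw UMI counts per gene and barcode, which the authors made by aligning reads to mm10 and counting with Cell Ranger (version 1.3.1 in the submitters' processing notes, whereas the study's methods name a later version), with no normalization. Whether counting used strand is not given in the sources used here.

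A cell was kept if its mitochondrial share was at most 10% and it had 600 to 4800 detected genes (embryonic libraries) or 900 to 7700 (P0 libraries). Cells of an age were integrated over libraries and clustered in Seurat 5.3.0 (R 4.3.3; 3000 variable genes, 30 components, 20 neighbours, resolution 1.0, then 0.8 within epithelial and mesenchymal cells), leaving out 38 Hedgehog pathway genes. Clusters were named from marker lists, with score limits set after the scores had been seen. Mesenchymal clusters led by markers of another class were set apart (1087 cells at E14.5 and 3523 at E16.5), and intermediate mesenchyme joined no test.

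UMIs were summed per library and class with at least 20 cells and tested with edgeR 4.0.16 (quasi-likelihood test, expression filter, TMM, Benjamini-Hochberg adjustment over all genes tested, threshold 0.05). Genotype and age were fitted over the 12 later libraries, and classes within an age with the library as a block. Beside 18 comparisons of groups or classes there were 5 tests of a change in the genotype difference and 10 fits within marker lists. Sums per library replaced tests on cells because cells are not replicates. Other steps used Python 3.11.15, scanpy 1.11.5 and scipy 1.17.1. Fits were tested on simulated data. Named genes are the 8 members, up to 5 genes of the wider list with the largest change past the threshold, and for each member the 3 genes with the highest Pearson r of log2(CPM + 10). A gene that these rules also named is not reported here. The members, lists and tests were chosen with earlier results of these data known. Gene positions are from GENCODE M21 on GRCm38 by Ensembl identifier.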

Additional observations from a re-analysis of the deposited data

Results flagged for a closer look

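In 4 genes of the wider pathway list the genotype difference changed between E16.5 and P0 by a test of the change itself (edgeR interaction term, adjusted over all genes tested). These were 2 of 32 genes tested in IFE basal-like cells, beside 13.4% of all genes, and 2 of 35 in hair follicle-like cells, beside 10.2%. In IFE basal-like cells the change was log2 1.17 ± 0.16 for Gas1 and -0.893 ± 0.26 for Arl13b, a gene of the primary cilium. In hair follicle-like cells it was log2 -0.968 ± 0.22 for Mycn and -0.76 ± 0.15 for Bcl2. For Gas1 the Chromium v1 WT library of P0, at 252 UMIs per 1000000, lay with the Grhl3-/- libraries (265 and 256) and not with the other WT libraries (101 and 110), and for Bcl2, at 74.0, it lay between the Grhl3-/- libraries (70.7 and 75.8). For Arl13b, at 21.5, it lay below all of the other P0 libraries (33.2 to 71.8).

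Shh was also counted in cells outside the compared classes at E14.5. A pair of epithelial clusters that met no name, led by Krt14 and Krt15 and in the smaller of them also Krt17 and Dkk4, held 12 and 14 Shh UMIs in the WT libraries and 2 and 36 in the Grhl3-/- libraries, from 52, 83, 72 and 275 cells. That is 33.3 and 73.7% of all Shh UMIs of the WT libraries and 2 of 4 and 36 of 51 Shh UMIs of the Grhl3-/- libraries. A cluster led by Fabp7, Aldoc and Olig1, 283 of whose 321 cells came from the first E14.5 WT library, held 16 Shh UMIs and 137 Ptch1 UMIs there, and 0 Shh UMIs in the other libraries of that age, where it had 8 to 20 cells.

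The Chromium v1 WT library, which entered no comparison, held Shh at 82.7 UMIs per 1000000 in its hair follicle-like cells, below the 88.5 to 134 of the other P0 libraries.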

How the results depend on the processing

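The number of members called changed by more than 1.5 times in 15 of 198 other settings and in 3 of 148 fits without 1 library, and no member reversed. Of single members, 36 calls were lost and 15 gained over 1372 other settings, and 33 lost and 9 gained over 1076 fits without 1 library. The causes were not tested, except that reduced sums hold fewer UMIs by construction.

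For genotype at P0 in IFE basal-like cells (3 called) the count was 1 with no filter on low counts, 1 at resolution 1.2, 1 with reduced sums, 0 with DESeq2 and 1 with the compared groups alone. In hair follicle-like cells (3) it was 1 with reduced sums, 0 in matrix-list cells alone and 0 in inner root sheath-list cells alone. For age in hair follicle-like cells (2) it was 4 with no filter, 6 without integration, 4 in placode-list cells and 5 in outer root sheath-list cells. For genotype at E14.5 in fibroblast-like cells (0) it was 1 with no filter, for age in dermal condensate-like cells (1) 3 at resolution 1.2, and for hair follicle-like against IFE basal-like cells at P0 (5) 3 with reduced sums.

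Without 1 library, the counts ran from 1 to 4 for genotype at P0 in IFE basal-like cells (1 without the second E14.5 Grhl3-/- library), 2 to 3 and 4 to 6 for their ages, 2 to 4 for genotype at P0 and 2 to 3 for age in hair follicle-like cells, 0 to 1 for genotype at E14.5 (1 without the first E14.5 WT library) and 4 to 5 for age in fibroblast-like cells, 0 to 1 for age in dermal condensate-like cells (0 without the first E14.5 WT library), 4 to 4 and 4 to 5 between epithelial classes, and 5 to 6 and 6 to 7 between dermal classes. The others stayed at 0 to 0.

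Replicate numbers did not pair the libraries (correlation of deviations from -0.071 to 0.002). With the replicate number as a block, every count of members was as without it: 0, 0 and 3 for genotype in IFE basal-like cells, 0 and 3 in hair follicle-like cells, and 0 in the dermal classes, and for age 3, 6, 2, 5 and 1.

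Shares of cells moved with the depth each cell was reduced to. With 3000 UMIs, no reduction, or at least 2 UMIs of the gene, the mean share for Shh in hair follicle-like cells was 23.8, 33.3 and 7.12% at E16.5 (19.1% as reported) and 22.8, 40.5 and 4.91% at P0 (17.1%). For Ptch1 it was 33.0, 55.9 and 4.36% (23.2%) and 47.1, 79.4 and 10.1% (35.5%) in hair follicle-like cells, and 45.5, 72.0 and 6.92% at E14.5 (34.0%) and 46.6, 66.4 and 6.99% at E16.5 (34.0%) in dermal condensate-like cells. Leaving out 1 library moved no share by more than the spread between libraries.

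The counts limit Hhip in epithelium, Gli3 in the E14.5 condensate and Shh in the dermis. P0 differs from E16.5 in tissue and digestion as well as age, and 1 chemistry has no replicate. Age and litter cannot be told apart in any comparison of ages. With 2 libraries a group, a gene that was not called is not shown to be alike between groups.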
